A study of Drosophila melanogaster with 4 samples.

Results

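Peaks of GFP-tagged Ultraspiracle (Usp) were described in 2 genomic intervals, one taken for the ftz-f1 gene at cytological position 75D and one for its relative Hr39 at 39B-C. A peak belonged to an interval when its midpoint lay on 3L from 18730000 to 18830000 (the ftz-f1 interval, 100 kb) or on 2L from 21220000 to 21270000 (the Hr39 interval, 50 kb), in FlyBase release 5 coordinates. The first held 12 peaks and the second 9, so 21 of the 3053 peaks in the authors' list. Both intervals were drawn around the genes with their flanks, by position and not by peak score. They were chosen with earlier results of these data known.

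The list came from ChIP-seq on *Drosophila melanogaster* larvae in the wandering stage of the third instar, just before pupariation. All libraries were from the USP-GFP strain, whose genotype is given as PBac{y[+]-attP-3B}VK00033 with a transgene of the USP genomic coding region, and sex is given as unknown. The 2 ChIP libraries were precipitated with the rabbit anti-GFP antibody ab290, and the 2 input libraries were genomic DNA of the same strain, so both groups carried the transgene. The sources used here do not give a control library without GFP, the promoter of the transgene or the state of the resident usp gene. Whole larvae mix many tissues, so a peak does not say in which cells the receptor was bound.

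Usp is a nuclear receptor, homologous to the retinoid X receptors of vertebrates. It pairs with the ecdysone receptor EcR, and together they bind DNA and switch genes on or off in answer to the steroid 20-hydroxyecdysone. The genes ftz-f1 and Hr39 both encode orphan nuclear receptors of one subfamily and can bind the same DNA element. The beta form of Ftz-f1 appears between the late larval and the prepupal ecdysone pulses and makes tissues competent to answer the second pulse. Hr39 is known for its role in the female reproductive tract and was described early as a gene of the ecdysone cascade.

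The names of the intervals come from their limits, and no peak was placed in a gene. The gene table used here is Release 6, whose positions cannot be set on release 5. Its gene lengths and gene order were used instead, with the assumption that they hold in both releases. In that table ftz-f1 is 50.7 kb long. The genes before it are Nufip and Atg3, a conjugation enzyme of autophagy, those after it are CG14073 and HipHop, a telomere capping protein, and the non-coding genes lncRNA:CR45938 and lncRNA:CR45939 overlap it. The first 73.0 kb of the ftz-f1 interval held no peak, which is more than the length of the gene. Over all places that ftz-f1 could take wholly within its interval, it would overlap between 0 and 12 of the 12 peaks. At 45.2% of these places it would overlap none, which is a share of places and not a probability. The peaks of this interval may therefore lie over CG14073 and its neighbours and not over ftz-f1, and "binding at ftz-f1" is not established by the list. In what follows, ftz-f1 or Hr39 before peaks, group, region or locus names the interval and not the gene.

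The same count gave a firmer answer for Hr39. That gene is 22.4 kb long and holds the microRNA gene mir-9374. The genes before it are CG31626 and the antisense RNA asRNA:CR45713, and those after it are l(2)k14505 and CG8671. The parts of its interval without peaks were shorter than the gene, 17.6 kb before the first peak and 17.9 kb after the last. Wherever Hr39 lay within the interval, it would overlap at least 3 of the 9 peaks, and at most 9.

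Joined at gaps of up to 5 kb, the peaks of each interval formed 1 group. The 12 peaks of the ftz-f1 interval ran over 15.9 kb, from 18802963 to 18818883, and the 9 of the Hr39 interval over 14.5 kb, from 21237593 to 21252109. Every member had another peak within 5 kb, against 81.8% of the peaks of 3L and 81.8% of those of 2L. At 1 kb, 10 of 12 and 8 of 9 members had a neighbour, against 64.4% on 3L and 65.2% on 2L. Joined at 1 kb, the peaks fell into 4 regions at each locus. Among peaks at or above the median score of the 6 arms, the ftz-f1 interval still held 1 group at 5 kb, while the 2 such peaks of the Hr39 interval were separate regions.

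**Figure D1:**
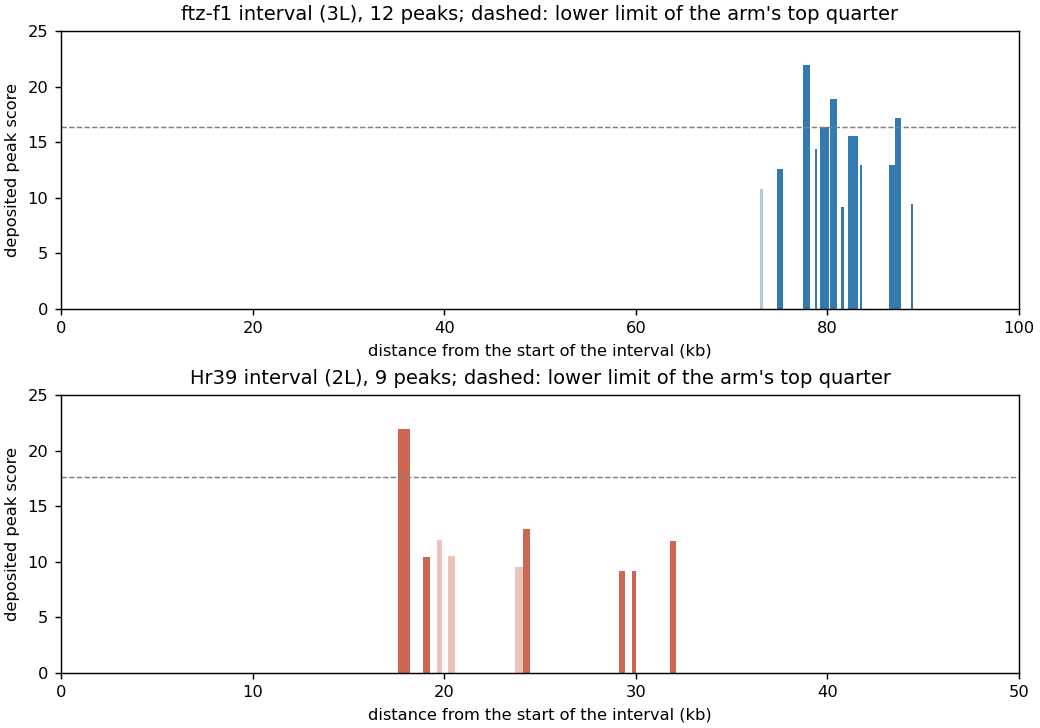
Deposited score (vertical axis, no unit) of each member peak against distance from the start of its interval in kb, with bars as wide as the peaks and pale bars for peaks without a fold. The 12 peaks of the ftz-f1 interval sit in its last part, from 73.0 kb on, while the 9 of the Hr39 interval lie near its middle, from 17.6 kb on, with the strongest peak first.

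The ftz-f1 group stood alone on its side towards lower coordinates. The next peak there, 18619794 to 18620078, was 183 kb away and had a score of 10.79. On the other side the next peak, 18861639 to 18861909 with a score of 11.13, was 42.8 kb away. The members nearest to the limits were the first peak, 18802963 to 18803258 with a score of 10.77, and the last, 18818666 to 18818883 with a score of 9.46.

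The Hr39 group had a closer neighbour. The peak from 21219617 to 21219840, with a score of 8.98, had its midpoint only 0.272 kb outside the lower limit and 17.8 kb from the first member. On the other side the next peak, 21310162 to 21310430 with a score of 10.79, was 58.1 kb away.

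Each peak has 1 score, the authors' own value, with no value per library and no replicate spread. The authors do not state its scale, which was inferred here from the values. Most scores followed a series of whole fragment numbers over 1 genome-wide background of 43.9 fragments. Each step was −log10 of the Poisson probability of that many fragments or more. For a peak within 0.01 of that series, the number of fragments piled up and its fold over the background were read back from the score. This held for 11 of the 12 peaks in the ftz-f1 interval, 6 of the 9 in the Hr39 interval and 74.4% of all peaks. The intervals given with a fold are exact 95% Poisson intervals and cover counting error only.

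The strongest peaks of the 2 intervals had the same score. In the ftz-f1 interval it was the third peak, 18807387 to 18808138, 752 bp wide, with a score of 21.95. In the Hr39 interval it was the first, 21237593 to 21238208, 616 bp wide, also with a score of 21.95. Both scores correspond to 123 fragments, or 2.80 times the background (2.33 to 3.34). The value was shared by 11 peaks of the 6 arms, and each of the 2 peaks ranked 90 on its own arm. The arms differ in size, so 88.7% of the 814 peaks of 3L scored lower, against 83.9% of the 578 of 2L.

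Around its strongest peak the ftz-f1 interval held several others of similar height. The sixth peak, 18810280 to 18811001, had a score of 18.87 and stood at 2.64 times the background (2.18 to 3.17). The eleventh, 18817123 to 18817713, had 17.20 and 2.55 times (2.10 to 3.07). These 2 and the strongest peak had overlapping intervals, so their order is not resolved by the counts. The fifth, 18809221 to 18810149, was 929 bp wide with a score of 16.38 and 2.51 times the background (2.06 to 3.02). The eighth, 18812085 to 18813174, was the widest of the group at 1090 bp, with a score of 15.59 and 2.46 times (2.02 to 2.97). From the third to the ninth peak the gaps ran from 130 to 538 bp, so these peaks lay close together but remained separate.

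The widest gap of the ftz-f1 group, 2816 bp, lay between the ninth and the tenth peak. Both of these had a score of 12.91 (2.30 times, 1.87 to 2.80), but the ninth, 18813361 to 18813571, was 211 bp wide and the tenth, 18816388 to 18817041, was 654 bp. The second and the fourth peak had scores of 12.55 and 14.42. The lowest score of the group was 9.14, at the seventh peak, which was 2.05 times the background (1.65 to 2.52) and lay between the sixth and the eighth. The first peak, at 10.77, was off the series, so no fold is given for it.

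In the Hr39 interval the strongest peak stood apart from the other 8, whose scores ran from 9.14 to 12.91. The 3 peaks after it, 21238850 to 21239193, 21239614 to 21239920 and 21240235 to 21240606, had scores of 10.45, 11.99 and 10.52. Of these only the first had a fold, 2.14 (1.73 to 2.62). A pair followed at 21243667 to 21244073 and 21244121 to 21244519, separated by 47 bp, with scores of 9.52 and 12.91. The second of the pair stood at 2.30 times the background (1.87 to 2.80), the same as 2 peaks of the ftz-f1 interval. After the widest gap, 4628 bp, came 2 peaks with a score of 9.14 (2.05 times, 1.65 to 2.52), 21249148 to 21249503 and 21249768 to 21249970. The last peak, 21251809 to 21252109, had a score of 11.83 and 2.23 times (1.81 to 2.72). The interval of the strongest peak, 2.33 to 3.34, overlapped that of each of the 5 other peaks with a fold.

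**Figure D2:**
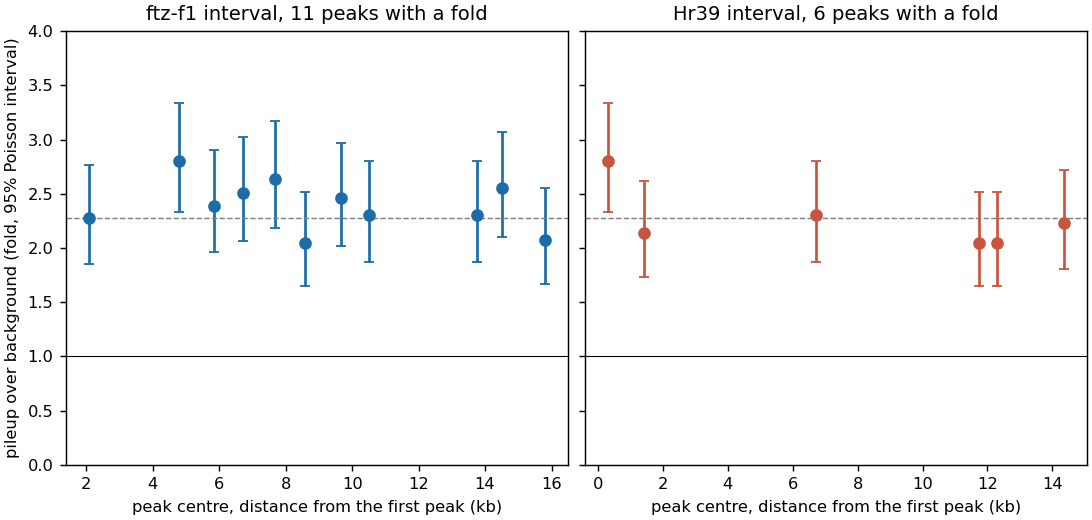
Pileup over background (fold, points, with exact 95% Poisson intervals as bars) against the distance of the peak centre from the first peak of the group in kb, for the 11 and 6 peaks with a fold. The dashed line is the median of the other peaks of the arm with a fold, 2.28 on both arms, and the solid line marks no enrichment. The highest point of each group is 2.80 and the lowest 2.05.

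Set side by side, the 2 groups reached the same top and bottom. Scores ran from 9.14 to 21.95 in both, and 9.14 was a common value, shared by 83 peaks of the 6 arms. The median score was 13.7 in the ftz-f1 interval (order-statistic interval 10.8 to 17.2) and 10.5 in the Hr39 interval (9.14 to 12.9), and these intervals overlap. Of the ftz-f1 peaks, 10 of 12 scored above the median of the Hr39 peaks, and 1 of 9 Hr39 peaks scored above the median of the ftz-f1 peaks. With 1 list and peaks that lie side by side, this difference was not tested. A score at or above the median of the 6 arms was found for 9 of 12 peaks in the ftz-f1 interval, against 52.1% on 3L. It was found for 2 of 9 in the Hr39 interval, against 52.8% on 2L.

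The widest peaks were in the ftz-f1 interval. The median width was 622 bp there (order-statistic interval 241 to 752), with a range of 211 to 1090 bp. In the Hr39 interval it was 356 bp (301 to 407), with a range of 203 to 616 bp. The interval of the second median lies within that of the first, so the medians are not resolved. In the ftz-f1 interval 6 peaks were wider than the widest Hr39 peak. A width over 500 bp was found for 7 of 12 peaks there, against 27.3% on 3L, and for 1 of 9 in the Hr39 interval, against 27.3% on 2L. Over 1 kb there were 1 and 0 peaks, against 7.74% and 7.44% of the arms. Peaks covered 6.69 kb of the ftz-f1 interval and 3.31 kb of the Hr39 interval. As a share of the interval these were nearly equal, 6.69% and 6.61%, against 1.67% of the rest of 3L and 1.28% of the rest of 2L. From the first to the last peak, 42.0% of the ftz-f1 group and 22.8% of the Hr39 group were covered. Width and score come from the same peak call, so they are not separate evidence.

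**Figure D3:**
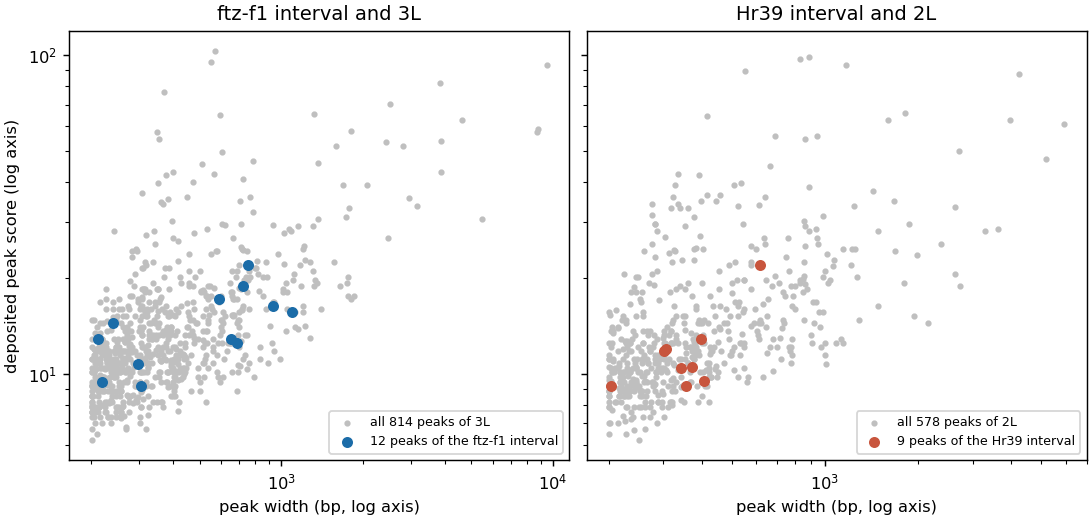
Deposited score (log axis, no unit) against peak width in bp (log axis) for the members (coloured) and all peaks of the arm (grey). The ftz-f1 peaks reach 1090 bp and the Hr39 peaks 616 bp, and no member scores above 21.95.

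Neither group held the strongest peaks of its arm. A score in the top 25% of the arm was found for 4 of 12 ftz-f1 peaks, with a limit of 16.38 and a share of 25.4% on 3L, and for 1 of 9 Hr39 peaks, with a limit of 17.61 and a share of 25.3% on 2L. The median score of the other peaks was 12.2 on 3L and 12.6 on 2L. Among peaks with a fold, the median was 2.39 in the ftz-f1 interval and 2.19 in the Hr39 interval, against 2.28 among the other peaks of either arm. The strongest of those other peaks reached 5.51 on 3L and 5.58 on 2L, against 2.80 in both groups.

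In number of peaks both intervals, which were chosen with earlier results of these data known, were above the average of their arms. The ftz-f1 interval held 120 peaks per Mb against 33.0 on the rest of 3L, a ratio of 3.64 (exact interval 1.87 to 6.39). The Hr39 interval held 180 per Mb against 25.5 on the rest of 2L, a ratio of 7.06 (3.21 to 13.5). Among peaks scoring at or above the median of the 6 arms, the ratio was 5.27 (2.39 to 10.1) for the ftz-f1 interval. For the Hr39 interval it was 2.95 (0.355 to 10.7), from 2 peaks, and that interval includes 1. The density of the ftz-f1 interval was 0.667 times that of the Hr39 interval (0.258 to 1.79), and over the stretches from first to last peak, a choice made after the values were seen, it was 1.22 times (0.470 to 3.27). The exact intervals take peaks as independent, which peaks in a group are not, so they are too narrow. With the intervals narrowed by 10 kb on each side the density ratio of ftz-f1 to Hr39 was 0.50 (0.193 to 1.34), from the same peaks over shorter lengths. Among peaks at or above the median score of the 6 arms it was 2.25 (0.466 to 21.4). Each of these ranges includes 1, so no direction between the 2 loci is given.

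Other intervals of the same length held as many peaks. When 3L was cut into 243 intervals of 100 kb, 119 held no peak, and 21, or 8.64%, held at least the 12 peaks of the ftz-f1 interval, which is one of the 21. The fullest held 51. When 2L was cut into 446 intervals of 50 kb, 302 held none, and 22, or 4.93%, held at least the 9 peaks of the Hr39 interval, itself included. The fullest of those held 22.

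**Figure D4:**
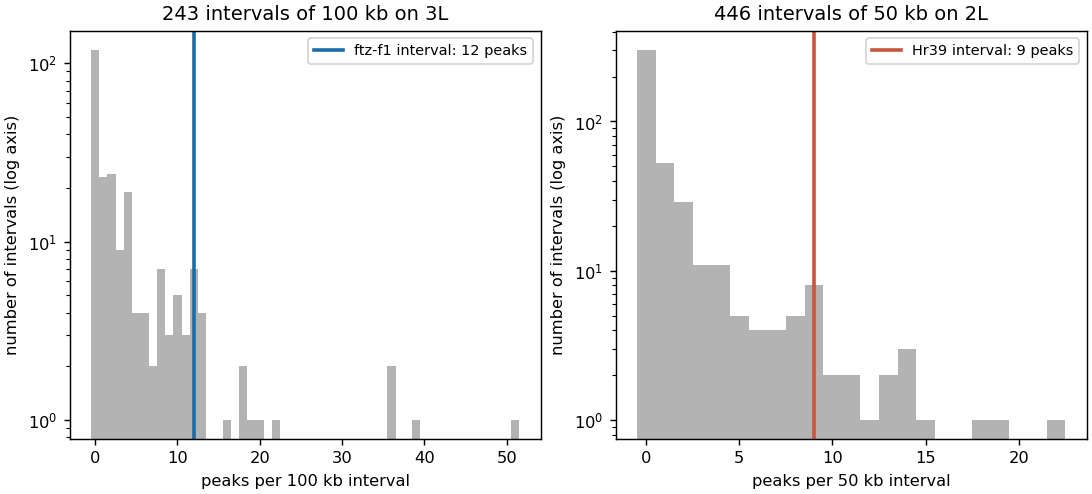
Number of intervals (log axis) by the number of peaks they hold, for 243 intervals of 100 kb on 3L and 446 intervals of 50 kb on 2L, with a coloured line at the ftz-f1 interval (12 peaks) and the Hr39 interval (9 peaks). Both lines lie above most intervals of their arm and below the fullest, which hold 51 and 22 peaks.

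Joined at 5 kb, each group was 1 region, and each can be set beside the other regions of at least 5 peaks on its arm. The ftz-f1 region, at 42.0% covered, was above the median of the 43 others on 3L, 32.7%, and 14 of them were covered more. Its 0.754 peaks per kb were close to their median of 0.771. The Hr39 region, at 22.8% covered, was below the median of the 37 others on 2L, 37.2%, and 32 of them were covered more. Its 0.620 peaks per kb were below their median of 0.758. The best score of each, 21.95, was exceeded in 23 of the 43 regions on 3L and in 25 of the 37 on 2L.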

How the data were processed

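The authors deposited 1 peak list for 2 ChIP and 2 input libraries, with a score per peak whose scale is not stated. Peaks were called with MACS on FlyBase release 5, per the file headers. The submitters' processing notes name BDGP5, BWA, MACS2 and CASAVA 1.7.0.2 and 1.7.0.3, with no role. The sources used here do not give the calling threshold, the pooling of replicates or the library depth.

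Computed here: membership, gaps, joined regions, tiled intervals and the Poisson reading of the score. The background was fitted to 52 scores each shared by at least 10 peaks (mean error 0.00298). In 10 simulated lists of 3053 scores it was recovered within 0.00200, and at most 6.92% of peaks given another background fell on the series. Those lists were made with the same Poisson formula, so they check the fit and not the reading of the deposited score. No test was run, since there is no value per library. Density ratios carry exact binomial intervals and medians binomial order-statistic intervals, at 95%.

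The members and comparisons were chosen with earlier results of these data known. Of the ftz-f1 peaks, a fixed rule named the 5 highest, 3 widest, outermost and those beside the widest gap. The others were added later; all Hr39 peaks were named. Planned alignments of proteins and searches of promoters were not run. Scripts ran under Python 3.11.15 with matplotlib 3.10.9 for plots, scipy 1.17.1 for intervals, and pandas 2.3.3 and numpy 2.4.6 for tables.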

Additional observations from a re-analysis of the deposited data

How the results depend on the processing

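No paired analysis was possible because the list gives each peak 1 score over all libraries, and no replicate could be left out. Of 85 alternative values, 68 stayed within the interval of the reported value (counts within 1.5 times). For the covered share that interval was binomial and took single bases as independent, so it was far too narrow. It ran from 6.54% to 6.85% around 6.69% for ftz-f1, and small changes fell outside it. Many of the 68 had no room to differ. Membership by overlap of 1 base and narrowing by 10 kb on each side both kept the same 12 and 9 peaks. Widening kept the 12 ftz-f1 peaks, and the series tolerance of 0.015 took in no further member. Only the density of each interval over its arm could be labelled as changing direction, and neither ratio fell below 1. Orders between the 2 loci could not receive that label, and some changed. The density of ftz-f1 over Hr39, 0.667, was 1.22 over the stretches from first to last peak. The median score, 13.7 against 10.5, was 15.6 against 17.4 among peaks at or above the median score of the 6 arms. Taking peaks at or above the median score of the 6 arms together, 12.19, left 9 ftz-f1 and 2 Hr39 peaks. The density of the Hr39 interval over its arm was then 2.95 (0.355 to 10.7), its median score 17.4 and width 508 bp. Of its peaks, 0 had a neighbour within 5 kb, and they formed 2 regions. The covered share was 5.87% for ftz-f1 and 2.03% for Hr39, and the density of ftz-f1 over Hr39 went from 0.667 to 2.25 (0.466 to 21.4). Widening the intervals by 10 kb on each side gave covered shares of 5.58% and 5.04%. It gave 2 Hr39 regions, since the peak just outside the limit entered. Narrowing them gave shares of 8.37% and 11.0%. The shares after narrowing, and that of ftz-f1 after widening, changed only through the interval length, since the peaks were the same. Joining at 1 kb gave 4 regions at each locus. A width limit of 500 bp in place of 1 kb raised the counts of wide peaks from 1 to 7 and from 0 to 1. Leaving out the other regions of 10 or more peaks, added after the data were seen, gave density ratios of 5.58 and 9.72. With no depth per library, no limit of detection can be given.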
